A study of Homo sapiens with 9 samples.

Results

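The genes described are FLI1, EWSR1 and TAF15, chosen by symbol as the parent genes of the EWS-FLI1 fusion and a further member of the FET family. All 3 were among the 23368 symbols of the count table, and all 3 passed the filter on low counts that left 13648 genes to test. Their RNA was measured by sequencing in A673 cells, an established line of Ewing sarcoma, a tumour of bone and soft tissue. The 9 libraries were 3 from cells given siLRWD1-5, 3 from cells given siLRWD1-6 and 3 from cells given a scrambled siRNA. Both siLRWD1 molecules target LRWD1, whose protein binds the origin recognition complex. Every siRNA was reverse transfected at 13 nM, and RNA was taken 48 h later from independent experiments, which the labels number as series 1 to 3 within each group, without saying whether a number marks a shared experiment across groups. All cells grew in medium with serum approved for tetracycline-regulated systems, Zeocin and blasticidin, and the labels name neither a construct nor an inducer. Such media are used for lines engineered with tetracycline-regulated constructs. Whether these cells carried one, and whether it acted on the fusion, is not given in the labels, and FLI1 counts would have another meaning if it did. The experiments used 1 cell line and belong to a screen for targets in EWS-FLI1-positive cells, and the question here is how the RNA of the genes that make the fusion stood after LRWD1 knockdown. Both comparisons with scrambled use the same 3 scrambled libraries. P-values measure the spread between these experiments in a single line.

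EWSR1 and TAF15 encode RNA-binding proteins of the FET family, in which a low-complexity N-terminal region that can activate transcription is followed by RNA-binding regions. TAF15 was named for its association with TFIID, the complex that recognises core promoters. FLI1 encodes an ETS transcription factor, which binds DNA through its C-terminal ETS domain and normally acts in blood and endothelial cells. In most Ewing sarcomas a translocation between chromosomes 11 and 22 places the N-terminal region of EWSR1 in front of the DNA-binding domain of FLI1. The fusion gene is transcribed from the EWSR1 promoter, and its product drives the tumour's expression programme.

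A673 is known to carry the type 1 fusion, in which exon 7 of EWSR1 is joined to exon 6 of FLI1. The end of the last EWSR1 exon kept in that fusion is shown because it fixes which EWSR1 reads can come from the fused RNA. It is reference sequence from GENCODE release 29, on the plus strand of GRCh38, read 5′ to 3′, with the 8 bases next to the join in capitals.
EWSR1 exon 7, last 30 bases, chr22:29287105-29287134: gccaacagagcagcagctacggGCAGCAGA
Exons 1 to 7 hold 1112 of the 2654 bases of the EWSR1 transcript used for this numbering (41.9%) and 40.3% of its coding bases. Exons 6 to 9 hold 2983 of the 4127 bases of the FLI1 transcript (72.3%) and 51.7% of its coding bases. Most of the FLI1 transcript, but less of EWSR1, can therefore give reads of fused origin. The deposited counts are per gene, so FLI1 counts mix fusion RNA with any RNA of intact FLI1, and EWSR1 counts mix the front part of the fusion with RNA of the intact EWSR1 allele. The parts cannot be told apart here. The counts cannot show the junction itself, and the fusion type was not tested.

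**Figure D1:**
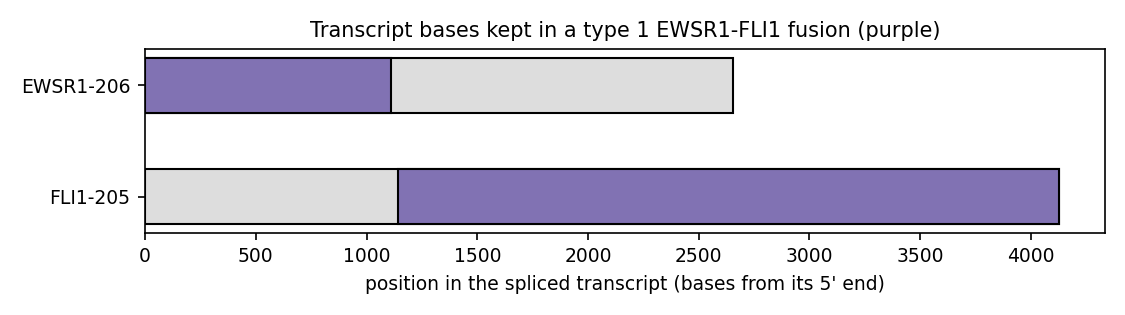
The bars are the spliced reference transcripts of EWSR1 (2654 bases) and FLI1 (4127 bases), with position in bases from the 5′ end on the x axis, and purple marks the bases that a type 1 fusion keeps. The fusion keeps the first 1112 bases of the EWSR1 transcript and the last 2983 bases of the FLI1 transcript.

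The libraries held between 11971179 and 15674452 counts, and LRWD1 was lower in every siLRWD1-5 and siLRWD1-6 library (6.55 to 11.3 CPM, the count relative to each library's TMM-scaled total) than in every scrambled library (49.1 to 54.6 CPM). Libraries were separated in this direction in 24.6% of the genes tested for siLRWD1-5 and in 17.3% for siLRWD1-6. Scrambled replicate 2 stood apart from its group: it differed from the other scrambled libraries by a chi-square per gene of 28.39 and 24.2, against 2.98 to 5.45 in every other pair of replicates. Comparisons with scrambled are therefore given with and without it. Without it, calls over all genes tested rose from 5292 to 6790 for siLRWD1-5 and from 2265 to 3953 for siLRWD1-6. Counts of list members without it stand beside that rise. When a library was left out, calls over all genes tested ranged from 4189 to 6790 for siLRWD1-5 and from 1248 to 3953 for siLRWD1-6. With no scaling beyond library size, 3101 genes were called higher and 2320 lower for siLRWD1-5, against 2527 and 2765 with TMM. List counts under those settings stand beside these values. Of 6 Ewing sarcoma markers, NR0B1, NKX2-2, STEAP1, CCND1 and LIPI were present in all 9 libraries at 19.5 CPM or more. CD99, a surface marker whose gene lies in the pseudoautosomal region shared by the X and Y chromosomes, had no count in 8 libraries and 50 counts in 1 library. Of 20 markers of endothelial and blood cells, the cells that normally use FLI1, 15 had at most 10 counts in any library and 6 had 0 in all 9, among them CD3E, GATA1, GP9 and HBB. Their summed level was 9.96 to 11.7 CPM with siLRWD1-5, 5.50 to 6.27 CPM with siLRWD1-6 and 7.52 to 14.1 CPM with scrambled siRNA. Their part in the FLI1 values was not tested. Of the 3 that were tested, CD79A fell with siLRWD1-5 (0.777 against 1.76 CPM) and KDR fell with siLRWD1-6 (2.16 against 5.34 CPM). No tested marker rose in either comparison by edgeR. In each comparison 33.3% were thus called, beside 38.8% of all genes tested for siLRWD1-5 and 16.6% for siLRWD1-6. CD79A had at most 31 counts in a library and KDR at most 109. The KDR call was lost when any siLRWD1-6 library was left out, and without scrambled replicate 2, 1 marker fell and 1 rose with siLRWD1-5. In bulk RNA, fewer cells of a type and less RNA per cell cannot be told apart.

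All 3 genes were well expressed. EWSR1 averaged 186 CPM over the 9 libraries, above 91.8% of the genes tested, from 2116 to 3109 reads a library. TAF15 averaged 115 CPM (above 83.9%; 1202 to 1907 reads) and FLI1 67.9 CPM (above 71.3%; 595 to 1201 reads). Counting error was 1.79% to 4.10% of a value. Per kilobase of merged annotated exons, mean levels over the 9 libraries were 19.5 CPM for TAF15, 18.0 CPM for EWSR1 and 8.30 CPM for FLI1. With the length of a single coding transcript in place of merged exons they were 52.7 CPM for TAF15, 70.1 CPM for EWSR1 and 16.4 CPM for FLI1. FLI1 was thus the lowest with either length, whereas the order of EWSR1 and TAF15 depended on which length was used. Between its highest and lowest library FLI1 varied 1.85-fold, more than TAF15 (1.28-fold) or EWSR1 (1.22-fold).

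FLI1 was lower with siLRWD1-5 than with scrambled siRNA, whereas with siLRWD1-6 it was not lower. Replicates 1, 2 and 3 had 47.5, 52.9 and 48.3 CPM in siLRWD1-5 cells, 75.9, 87.7 and 85.3 CPM in siLRWD1-6 cells, and 66.7, 77.1 and 69.4 CPM in scrambled cells. Every siLRWD1-5 library was below every scrambled library, as in 24.6% of the genes tested. The siLRWD1-6 libraries overlapped the scrambled ones, because replicate 1 of siLRWD1-6 lay below scrambled replicate 2. The group means were 49.6 ± 2.90 CPM with siLRWD1-5, 83.0 ± 6.27 CPM with siLRWD1-6 and 71.1 ± 5.38 CPM with scrambled siRNA (SD, n = 3 each), so that siLRWD1-5 left 69.8% of the scrambled level.

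**Figure D2:**
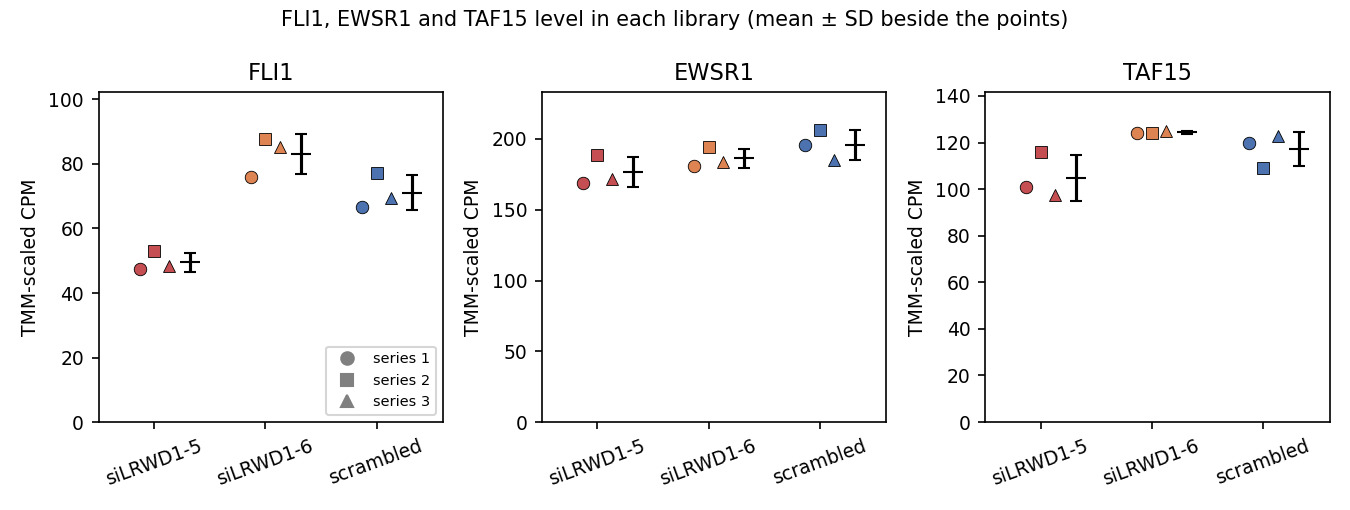
TMM-scaled CPM (y axis, from 0) of each gene in each library, grouped by siRNA, with the series number as the point shape and the mean ± SD (n = 3) beside the points. The 3 FLI1 values with siLRWD1-5, 47.5 to 52.9 CPM, sit below all others, whereas the groups of EWSR1 lie close together.

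FLI1 fell with siLRWD1-5 by 0.52 on the log2 scale (SE 0.08, 95% interval -0.70 to -0.34, edgeR quasi-likelihood test, Benjamini-Hochberg adjusted p = 5.0e-04). In this comparison 20.3% of the genes tested were called lower, and 12.5% had a change at least as far down as that of FLI1. The difference between libraries of the same series number was -0.49, -0.54 and -0.52 in series 1, 2 and 3. Without scrambled replicate 2 the log2 fold change was -0.46 (edgeR, adjusted p = 3.4e-05). With siLRWD1-6 the log2 fold change of FLI1 against scrambled was 0.22 (SE 0.08, 95% interval 0.047 to 0.40), which missed the threshold (edgeR, adjusted p = 0.082), beside 8.81% of the genes tested that were called higher and 7.78% called lower. FLI1 was highest of the scrambled libraries in replicate 2, and without that library the log2 fold change was 0.30 and passed (edgeR, adjusted p = 0.0044). It also passed at 0.22 with the replicate number as a block, a pairing that the labels do not give.

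Among the 3 genes, FLI1 differed most between the siRNAs. The level was 1.67-fold higher with siLRWD1-6 than with siLRWD1-5 (log2 fold change 0.74, SE 0.08, 95% interval 0.56 to 0.92, edgeR adjusted p = 3.0e-05), and all 3 siLRWD1-6 libraries were above all 3 siLRWD1-5 libraries. Groups failed to overlap in this direction in 30.7% of the genes tested, 43.4% were called, and 22.4% were called higher against 20.9% lower. A change at least as far up was found in 7.20% of the genes tested. LRWD1 itself had 7.74 ± 1.05 CPM with siLRWD1-6 and 10.8 ± 0.497 CPM with siLRWD1-5 (SD, n = 3 each). All its siLRWD1-6 libraries were the lower ones, as in 30.3% of the genes tested (edgeR, adjusted p = 0.0058).

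EWSR1 showed small differences. Its replicates had 169, 189 and 172 CPM in siLRWD1-5 cells, 181, 194 and 184 CPM in siLRWD1-6 cells, and 196, 206 and 185 CPM in scrambled cells. The groups overlapped in all 3 comparisons. The log2 fold change with siLRWD1-5 was -0.15 (SE 0.07, 95% interval -0.29 to -0.0049, edgeR adjusted p = 0.095), and all 3 same-number differences were below 0 (-0.22, -0.12 and -0.10). With the replicate number as a block in a fit of all 9 libraries, the value was again -0.15 and passed the threshold (edgeR, adjusted p = 0.042). The labels do not give this pairing, which was read from the same data. Without scrambled replicate 2 it was -0.11 (edgeR, adjusted p = 0.14). With siLRWD1-6 the log2 fold change was -0.07 (SE 0.07, 95% interval -0.22 to 0.073, edgeR adjusted p = 0.52) and without scrambled replicate 2 it was -0.02. Between siLRWD1-6 and siLRWD1-5 it was 0.08 (95% interval -0.066 to 0.22, edgeR adjusted p = 0.36). The intervals reach -0.29 on the log2 scale and do not show that EWSR1 was the same in all groups.

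TAF15, which takes no part in the A673 fusion, had 101, 116 and 97.6 CPM in siLRWD1-5 cells, 124, 124 and 125 CPM in siLRWD1-6 cells, and 120, 109 and 123 CPM in scrambled cells. Its siLRWD1-6 libraries were all above the scrambled ones, as in 16.4% of the genes tested, and the siLRWD1-5 libraries overlapped them. The SD among the siLRWD1-6 libraries was 0.342% of their mean (n = 3), less than their counting error of 2.37% to 2.61%. Against scrambled, the log2 fold change was -0.17 with siLRWD1-5 (SE 0.07, 95% interval -0.33 to -0.0022, edgeR adjusted p = 0.10) and 0.08 with siLRWD1-6 (SE 0.07, 95% interval -0.080 to 0.24, edgeR adjusted p = 0.50). TAF15 was lowest of the scrambled libraries in replicate 2. Without that library its log2 fold change with siLRWD1-5 was -0.22 and passed the threshold (edgeR, adjusted p = 0.011), and with siLRWD1-6 it was 0.04 (edgeR, adjusted p = 0.68). Without siLRWD1-5 replicate 2, the highest of its group, the value with siLRWD1-5 was -0.24 and also passed (edgeR, adjusted p = 0.031).

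Between the siRNAs, TAF15 was 1.19-fold higher with siLRWD1-6 than with siLRWD1-5 (log2 fold change 0.25, SE 0.07, 95% interval 0.084 to 0.41, edgeR adjusted p = 0.019). All 3 siLRWD1-6 libraries were above all 3 siLRWD1-5 libraries, as in 30.7% of the genes tested, beside 43.4% called in either direction, and 26.7% of the genes had a change at least as far up. The call was lost with no scaling beyond library size (0.18, edgeR adjusted p = 0.083). It was also lost when siLRWD1-5 replicate 1 (0.22, adjusted p = 0.074) or 3 (0.20, adjusted p = 0.078), or siLRWD1-6 replicate 1 (0.25, adjusted p = 0.052) or 2 (0.25, adjusted p = 0.053), was left out of the edgeR fit.

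**Figure D3:**
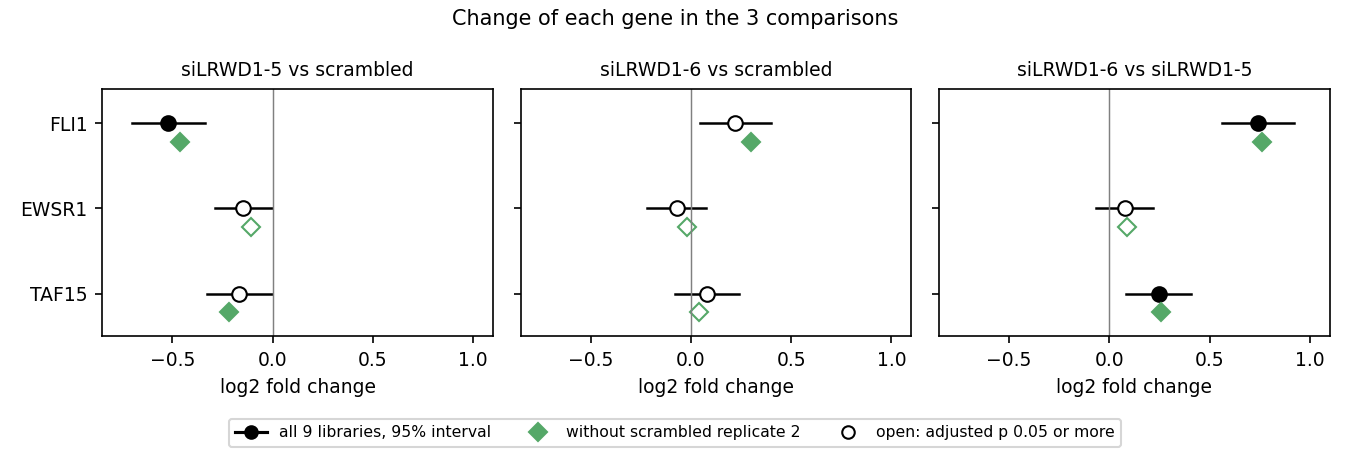
Log2 fold change (x axis) of FLI1, EWSR1 and TAF15 in each comparison, with circles and 95% intervals from all 9 libraries and green diamonds from the fit without scrambled replicate 2. Filled symbols had an adjusted p under 0.05: FLI1 passed in both fits for siLRWD1-5 (-0.52) and between the siRNAs (0.74), and only without that library for siLRWD1-6.

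The ratio of FLI1 to EWSR1 reads within a library does not depend on scaling. It was 0.282, 0.280 and 0.281 with siLRWD1-5, 0.419, 0.452 and 0.465 with siLRWD1-6, and 0.340, 0.374 and 0.376 with scrambled siRNA. The 3 groups did not overlap, with siLRWD1-5 lowest and siLRWD1-6 highest, and this order includes scrambled replicate 2. How often the ratio of another gene to EWSR1 separates the groups was not measured. By CPM, 24.6% of the genes tested were lower in every siLRWD1-5 library than in scrambled. All siLRWD1-6 libraries were higher than scrambled in 16.4%, and higher than siLRWD1-5 in 30.7%. On the log2 scale the ratio was -1.83 ± 0.0046 with siLRWD1-5, -1.17 ± 0.077 with siLRWD1-6 and -1.46 ± 0.083 with scrambled siRNA (SD, n = 3 each). The siLRWD1-5 ratios lay closer together than the counting error of FLI1 in those libraries, 3.64% to 4.10% of a value. The log2 ratio differed from scrambled by -0.37 with siLRWD1-5 and by 0.29 with siLRWD1-6, and by 0.66 between siLRWD1-6 and siLRWD1-5. Each of these 3 contrasts gave p = 0.10 in the exact two-sided permutation test, the smallest p that 3 libraries against 3 can give.

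The ratio of TAF15 to EWSR1 reads was 0.598, 0.612 and 0.568 with siLRWD1-5, 0.684, 0.640 and 0.679 with siLRWD1-6, and 0.613, 0.530 and 0.664 with scrambled siRNA. Scrambled replicate 2 was the lowest of all 9 libraries. The log2 ratio differed from scrambled by -0.02 with siLRWD1-5 (exact permutation p = 0.80) and by 0.15 with siLRWD1-6 (exact permutation p = 0.20). Leaving out scrambled replicate 2 gave differences of -0.11 with siLRWD1-5 and 0.06 with siLRWD1-6. Without scrambled replicate 3 they were 0.06 and 0.23, so that single scrambled libraries set the size of both and the sign of the siLRWD1-5 value, which was 0.01 without siLRWD1-5 replicate 3. Between siLRWD1-6 and siLRWD1-5 the difference was 0.17, without overlap (exact permutation p = 0.10). By CPM, 30.7% of the genes tested did not overlap in this direction.

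**Figure D4:**
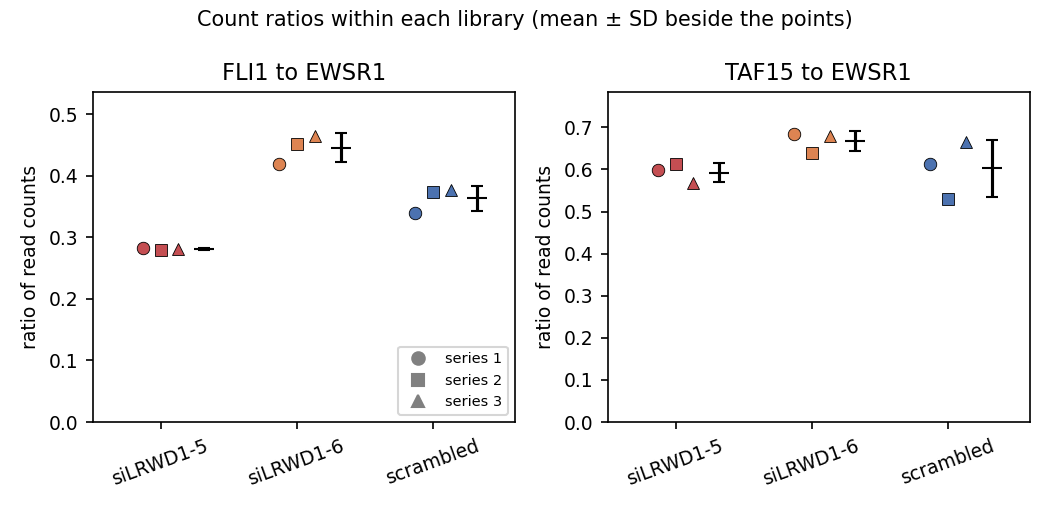
Ratio of read counts (y axis, from 0) of FLI1 to EWSR1 and of TAF15 to EWSR1 in each library, with the series number as the point shape and the mean ± SD (n = 3) beside the points. The FLI1 to EWSR1 ratios form 3 separate groups, at 0.280 to 0.282, 0.419 to 0.465 and 0.340 to 0.376, whereas the TAF15 to EWSR1 ratios of scrambled overlap both others.

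Genes next to the members in RefSeq order were looked at because reads were counted without known strand. SENCR, an RNA antisense to FLI1, and another non-coding locus overlap FLI1 and are not analysed here. ETS1, the protein-coding neighbour of FLI1 and also an ETS factor, did not pass against scrambled, with log2 fold changes of 0.04 with siLRWD1-5 (edgeR, adjusted p = 0.82) and 0.24 with siLRWD1-6 (edgeR, adjusted p = 0.22). KCNJ1 on the other side had at most 4 counts. Beside EWSR1, RHBDD3 had log2 fold changes of -0.03 and -0.06 with siLRWD1-5 and siLRWD1-6 (edgeR, adjusted p = 0.77 and 0.67), and GAS2L1 rose by 0.24 with siLRWD1-5 (44.2 against 37.4 CPM, edgeR adjusted p = 0.031). The neighbours of TAF15, MMP28 and C17orf66, had at most 2 counts.

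FLI1 belongs to the ETS family, 17 of whose 27 other members were tested. With siLRWD1-5, 9 fell and 3 rose (70.6% called, against 38.8% of all genes tested, with 20.3% called lower and 18.5% higher), with a median log2 fold change of -0.31 against -0.01 over all genes tested. Without scrambled replicate 2 these counts were 10 and 4. ETV5 fell 2.95-fold (33.4 ± 2.16 against 98.4 ± 4.61 CPM), ETV1 2.28-fold (27.1 against 61.7 CPM) and ELK3, a partner of serum response factor, 1.72-fold (51.3 ± 1.62 against 88.1 ± 3.03 CPM). ETV1 and ETV5 are, with ETV4, the PEA3 subgroup, and ETV1 is a rare fusion partner of EWSR1 in other Ewing sarcomas. The epithelial factor ELF3 rose, with 4.32 ± 1.48 CPM with siLRWD1-5 and 0.317 ± 0.427 CPM with scrambled siRNA (SD, n = 3 each), a near absence of reads in scrambled cells. All its siLRWD1-5 libraries were above the scrambled ones, as in 23.2% of the genes tested. These genes had adjusted p-values of 8.2e-08 to 5.6e-04 by edgeR. The ETS list, like the other lists here, was chosen with earlier results of these data known. Its shares in each comparison are not independent evidence about the family.

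With siLRWD1-6, 2 ETS genes fell and 2 rose (23.5%, against 16.6% of all genes), with a median of -0.03 against -0.02 over all genes tested, and without scrambled replicate 2 the counts were 3 lower and 4 higher. When scrambled replicate 1, siLRWD1-6 replicate 1 or siLRWD1-6 replicate 2 was left out, 2 genes in all passed. Calls over all genes tested also moved, from 2265 to between 1248 and 3953, as each library was left out. ETV4 fell by 0.69 on the log2 scale (15.3 ± 2.21 against 24.7 ± 2.63 CPM, edgeR adjusted p = 0.0053) and ETV6, a repressor, fell by 0.36 (22.9 ± 1.45 against 29.4 ± 0.600 CPM, edgeR adjusted p = 0.0095). ELK3 rose by 0.22 (103 ± 2.56 against 88.1 ± 3.03 CPM, edgeR adjusted p = 0.025) and ELF4 by 0.40 (32.5 ± 3.73 against 24.7 ± 2.47 CPM, edgeR adjusted p = 0.035). With siLRWD1-5, ETV4 also fell (-0.83) and ELF4 also rose (0.52), whereas ETV6 rose (0.47) and ELK3 fell (-0.78). Adjusted p-values there were 2.8e-06 to 0.0040 by edgeR. ERG, the alternative ETS partner of EWSR1 in Ewing sarcoma, had at most 2 counts in a library and did not pass the filter. Between siLRWD1-6 and siLRWD1-5, where FLI1 was higher, 8 of the 17 were higher and 3 lower (64.7% called and a median of 0.20, against 43.4% and -0.01 over all genes tested, with 22.4% called higher and 20.9% lower), led by ETV5 (112 ± 4.18 against 33.4 ± 2.16 CPM, edgeR adjusted p = 2.8e-08).

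**Figure D5:**
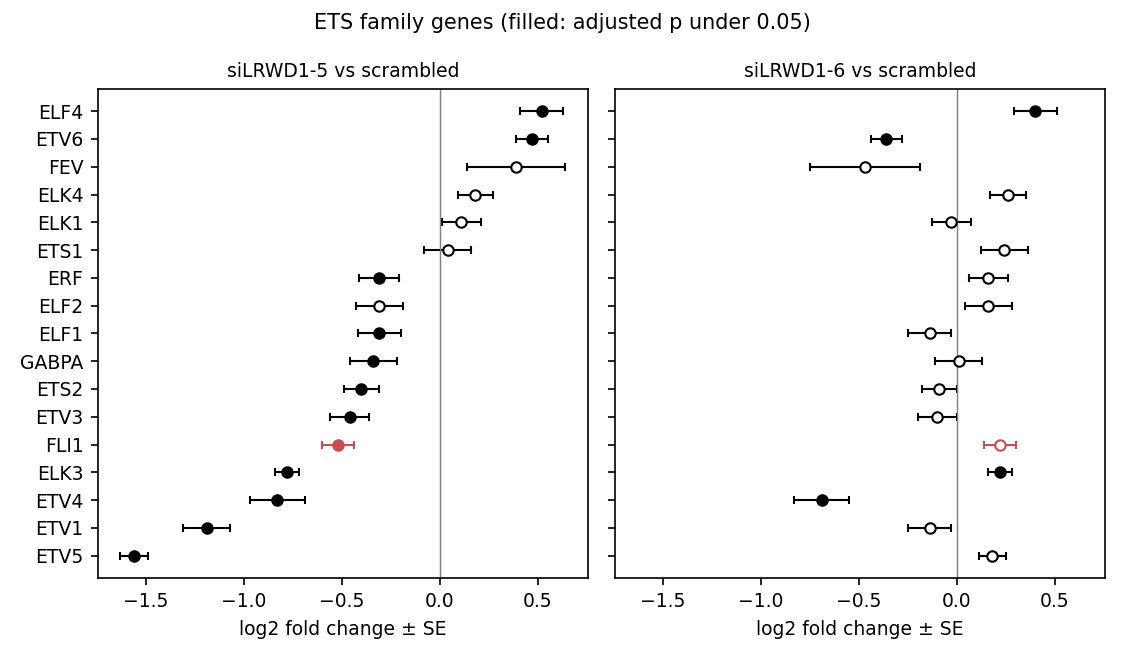
Log2 fold change ± SE (x axis) of FLI1 (red) and 16 other tested ETS genes against scrambled, in the order of their change with siLRWD1-5, with filled points for an adjusted p under 0.05. ELF3 is not drawn because of its low scrambled level. FLI1 lies at -0.52 with siLRWD1-5 and at 0.22 with siLRWD1-6.

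Partners of EWS-FLI1 on chromatin, the BAF remodelling complex and other cofactors, were all tested. With siLRWD1-5, 8 of 27 fell and 3 rose (40.7%, against 38.8% of all genes), with a median of -0.01. Without scrambled replicate 2 the counts were 10 lower and 5 higher, and with no scaling beyond library size 8 lower and 9 higher. Over all genes tested, no scaling gave 2320 lower and 3101 higher. SMARCC1, a core BAF subunit, fell 2.08-fold (148 ± 3.49 against 308 ± 14.4 CPM) and its paralog SMARCC2 1.37-fold. The deacetylase gene HDAC1 fell 1.27-fold and PBRM1, of the related PBAF complex, 1.54-fold. The adjusted p-values of these genes were 1.6e-07 to 4.4e-04 by edgeR. With siLRWD1-6, 0 of 27 passed by edgeR, DESeq2 or limma-voom, against 16.6% of all genes tested by edgeR. Of the 27, 8 had an unadjusted p under 0.05 in edgeR. Without scrambled replicate 2 the counts were 4 lower and 2 higher. Without scrambled replicate 3 there were 2, both higher.

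Among TFIID and RNA polymerase II subunits, the machinery that TAF15 associates with, 6 of 26 fell and 6 rose with siLRWD1-5 (46.2% called and a median of 0.05, against 38.8% and -0.01 over all genes tested). Leaving out scrambled replicate 2 gave 6 lower and 7 higher, and no scaling beyond library size gave 4 and 8. In all, 6 or 7 passed without scrambled replicate 3, siLRWD1-5 replicate 1 or siLRWD1-5 replicate 3. Calls over all genes tested fell in these fits too, from 5292 to 4470, 4189 and 4243. The polymerase subunit gene POLR2H fell by 0.61 on the log2 scale, TAF1, encoding the largest TFIID subunit, by 0.60 and TAF12 by 0.57 (edgeR, adjusted p = 5.0e-05, 7.6e-05 and 2.8e-04). With siLRWD1-6, 1 of 26 passed (3.85%, against 16.6% of all genes tested), the TFIID subunit gene TAF6, which fell 1.61-fold (edgeR, adjusted p = 4.9e-05). Without scrambled replicate 2 the counts were 2 lower and 2 higher.

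FET proteins bind RNA together with the U1 particle, which marks 5′ splice sites, and with hnRNP proteins. Of 18 genes of U1 and early splice site recognition, 3 fell and 1 rose with siLRWD1-5 (22.2% called and a median of -0.03, against 38.8% and -0.01 over all genes tested), led by U2AF2, which binds the polypyrimidine tract (log2 fold change -0.26, edgeR adjusted p = 0.0045). The counts were 4 lower and 0 higher without scrambled replicate 2 and 1 and 1 with no scaling beyond library size. In all, 2 passed when any other library except siLRWD1-6 replicates 1 and 3 was left out. Those fits gave 4189 to 4932 calls over all genes tested, against 5292 with all libraries. With siLRWD1-6 only SNRPD2, an Sm core protein gene, passed among them (5.56%, against 16.6% of all genes tested; log2 fold change -0.61, 131 ± 4.54 against 200 ± 7.84 CPM, edgeR adjusted p = 1.5e-04), and 2 genes were lower without scrambled replicate 2. Of 23 hnRNP and paraspeckle genes, 7 fell and 2 rose with siLRWD1-5 (39.1% called and a median of -0.09, against 38.8% and -0.01 over all genes tested), a share near that of all genes, with 10 lower and 2 higher without scrambled replicate 2 and 5 in all without siLRWD1-5 replicate 3. HNRNPA0 fell 2.61-fold (104 ± 3.81 against 272 ± 25.4 CPM), HNRNPUL2 1.76-fold and the paraspeckle gene NONO 1.25-fold, whereas HNRNPR rose 1.23-fold (edgeR, adjusted p = 1.5e-07 to 0.0019). With siLRWD1-6 HNRNPR alone passed (4.35%, against 16.6% of all genes tested), rising by 0.20 on the log2 scale (edgeR, adjusted p = 0.039), and 1 gene was higher without scrambled replicate 2. No gene of the list passed in edgeR when scrambled replicate 3, siLRWD1-5 replicate 1, or siLRWD1-6 replicate 1 or 2 was left out. Over the left-out libraries, siLRWD1-6 had 1248 to 3953 calls among all genes tested, against 2265 with all libraries.

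Of 22 genes that EWS-FLI1 is known to activate, 12 fell and 2 rose with siLRWD1-5 (63.6% called and a median of -0.51, against 38.8% and -0.01 over all genes tested, with 20.3% called lower and 18.5% higher). With siLRWD1-6, 3 fell and 1 rose (18.2% called, near the 16.6% of all genes tested, and a median of -0.16 against -0.02). With scrambled replicate 2 left out the counts were 14 and 3 with siLRWD1-5 and 5 and 4 with siLRWD1-6. Calls over all genes tested rose there too, from 5292 to 6790 and from 2265 to 3953. Leaving out siLRWD1-6 replicate 3 gave 1 and 1 with siLRWD1-6, for which all-gene calls ranged from 1248 to 3953 over the left-out libraries. The genes called with siLRWD1-6 were called in the same direction with siLRWD1-5. The kinase gene PRKCB fell to 122 CPM with siLRWD1-5 and 136 CPM with siLRWD1-6, against 202 CPM in scrambled cells. RBM11 fell to 136 CPM with siLRWD1-5 and 195 CPM with siLRWD1-6, against 241 CPM in scrambled cells, and ID2 fell 1.35-fold with siLRWD1-5 and 1.41-fold with siLRWD1-6. The protease gene PAPPA rose to 159 CPM with siLRWD1-5 and 169 CPM with siLRWD1-6, against 110 CPM in scrambled cells (edgeR, adjusted p = 5.9e-06 to 0.019 for these 4 genes). The direct target NR0B1 fell with siLRWD1-5 (24.8 ± 3.80 CPM) and did not pass with siLRWD1-6 (49.7 ± 3.42 CPM, edgeR adjusted p = 0.42), against 44.1 ± 7.87 CPM with scrambled siRNA (SD, n = 3 each). STEAP2, CAV1 and DCC fell with siLRWD1-5 (edgeR, adjusted p = 3.4e-06 to 2.7e-05) and did not pass with siLRWD1-6 against scrambled (edgeR, adjusted p = 0.075 to 0.98). With siLRWD1-5, siLRWD1-6 and scrambled siRNA, STEAP2 had 52.1, 106 and 130 CPM. CAV1 had 552, 1295 and 1420 CPM, and DCC had 26.8, 52.1 and 52.3 CPM, in the same order. The list was written with earlier results of these data known and is not independent evidence of its direction.

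Among 10260 genes with at least 5 CPM, those whose log2 CPM over the 9 libraries was most like that of FLI1 were SLC7A6 (Pearson r = 0.993), PPIF (0.991), FUBP3 (0.991), ZSWIM6 (0.989) and RPL3 (0.988). SLC7A6, an amino acid transporter gene, averaged 89.5 CPM in siLRWD1-5 cells, 163 CPM in siLRWD1-6 cells and 135 CPM in scrambled cells, the same order as FLI1. The profile of EWSR1 was most like those of MRPL45 (0.961), TRIM5 (0.953), PFKM (0.937), RAB13 (0.935) and RNF19B (0.932). That of TAF15 was most like EEF1B2 (0.975), TGIF2 (0.964), LCAT (0.954), TERF2 (0.943) and PIGP (0.934). Among the members, r was 0.794 between FLI1 and TAF15, 0.622 between FLI1 and EWSR1 and 0.48 between EWSR1 and TAF15. These values describe 9 libraries that share 3 groups and carry no test.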

How the data were processed

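The deposited table holds the authors' raw read counts per gene symbol for 9 RNA-seq libraries, unnormalized. The submitters' processing notes name bcl2fastq 1.8.4, TopHat2 2.0.10, HTSeq 0.5.4p3 and hg19, with no order. Annotation, counting mode and strand setting: not given in the sources used here. The kit named in the labels' protocols does not mark strand.

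edgeR's filterByExpr left 13648 of 23368 symbols, which held at least 99.92% of each library's counts. TMM factors were used for scaling. The test was the robust quasi-likelihood test of edgeR 4.0.16 (R 4.3.3), with group as its single term, fitted to the 9 libraries together. Benjamini-Hochberg adjustment ran over all genes tested, at a threshold of 0.05. Standard errors (SE) and 95% intervals came from the F statistic. Ratios of counts were compared with an exact two-sided permutation test. Counts were simulated for siLRWD1-5 against scrambled with 200 changed genes among 13648. The fit recovered 54.5% of changes of 0.5 and 88% of changes of 1 on the log2 scale. Unchanged genes made up 8.97% of the calls. The data differ from that setting, because 38.8% of the genes were called in this comparison and no simulated library stood apart. Rates in the data were not measured.

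The settings varied were: RLE size factors, no scaling beyond library size, no count filter, 1 CPM in 3 libraries, DESeq2 1.42.0, limma-voom 3.58.1, the replicate number as a block, only the groups compared, leaving out each library, and only the libraries numbered 1 and 3. Deviations from the group means of same-numbered libraries correlated at 0.251, 0.371 and 0.114 between siLRWD1-5 and scrambled. With siLRWD1-6 they correlated at 0.283, 0.24 and 0.048 against scrambled and at 0.173, 0.231 and 0.094 against siLRWD1-5. The numbers were therefore taken to pair libraries, at correlations over 0.1, only for siLRWD1-5 against scrambled. The block itself was fitted to all 9 libraries together, so it also paired those with siLRWD1-6.

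Genes named were the members, LRWD1, their annotated neighbours, up to 4 called genes with the smallest p per list and comparison, other list members with their values, and the 5 genes of at least 5 CPM with the most similar profile to each member. The members and the 7 gene lists were chosen with earlier results of these data known. The 9 transcripts of FLI1, 22 of EWSR1 and 15 of TAF15 and their sequences came from GENCODE release 29 (GRCh38), and gene order from RefSeq (GRCh38.p14). The sequence on the FLI1 side is not reported here.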

Additional observations from a re-analysis of the deposited data

Results flagged for a closer look

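The change of FLI1 against scrambled differed between the siRNAs, tested directly as siLRWD1-6 against siLRWD1-5, by 0.74 on the log2 scale (edgeR, adjusted p = 3.0e-05). The change of TAF15 differed in the same test by 0.25 (edgeR, adjusted p = 0.019), higher with siLRWD1-6 in all 3 libraries than in any siLRWD1-5 library. Groups did not overlap in this direction in 30.7% of the genes tested. The TAF15 call was lost with no scaling beyond library size and when siLRWD1-5 replicate 1 or 3 or siLRWD1-6 replicate 1 or 2 was left out. Groups of 3 libraries were too small to test for a single outlying library.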

How the results depend on the processing

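FLI1 kept its direction and call in all 18 alternatives for siLRWD1-5 against scrambled (log2 fold change -0.56 to -0.46) and between siLRWD1-6 and siLRWD1-5 (0.67 to 0.81). For siLRWD1-6 against scrambled it passed without scrambled replicate 2 and with only the libraries numbered 1 and 3 (0.25), and with the replicate number as a block (0.22), with a range of 0.18 to 0.30 when a library was left out. EWSR1 passed in 1 alternative, the block for siLRWD1-5 (-0.15), and ranged from -0.19 to -0.11 with siLRWD1-5, -0.11 to -0.02 with siLRWD1-6 and 0.05 to 0.13 between the siRNAs when a library was left out. TAF15 passed with siLRWD1-5 with only the libraries numbered 1 and 3 (-0.28) and ranged from -0.24 to -0.12, 0.04 to 0.11 and 0.20 to 0.33 over the left-out libraries of the 3 comparisons. With no scaling beyond library size it was 0.18 between the siRNAs and missed the threshold, and the calls split into 3101 higher and 2320 lower for siLRWD1-5 (2527 and 2765 with TMM) and 2478 and 3609 between the siRNAs (3063 and 2856 with TMM). The block changed no other call among the members, and its counts of calls were 5925, 2815 and 6492 against 5292, 2265 and 5919. Each library correlated best with the library of its own number in the other groups, a hint from the data and not from the design.

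Calls for siLRWD1-6 against scrambled numbered 1248 (without siLRWD1-6 replicate 1) to 3953 (without scrambled replicate 2) when a library was left out, 1369 without siLRWD1-6 replicate 2, and 3579 with only the libraries numbered 1 and 3. Left-out libraries gave 4189 to 6790 calls for siLRWD1-5 and 4685 to 7551 between the siRNAs. The difference in the log2 ratio of TAF15 to EWSR1 with siLRWD1-5 changed sign without siLRWD1-5 replicate 3 (0.01) and without scrambled replicate 3 (0.06), with a range of -0.11 to 0.06. The other ratio differences kept their sign. The level per kilobase was 12.6, 25.5 and 52.7 CPM for FLI1, EWSR1 and TAF15 with the longest transcript, and 16.4, 70.1 and 52.7 CPM with a coding transcript, a length chosen after seeing the data. Of 378 counts of list members under other settings, 57 moved by more than 1.5 times. Causes of these changes were not tested. Intervals on counts cover counting error only, and 3 libraries a group limit the precision of each fold change.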
